A study of Homo sapiens
Mus musculus and Mus musculus and Homo sapiens with 16 samples.

Results

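The BCL2 family sets the threshold for mitochondrial apoptosis, and its transcripts were followed here in REC-1 cells that grew alone, floated above bone marrow stroma or adhered to it. The genes were BCL2, BCL2L1, MCL1, BCL2A1, BAX, BAK1, BCL2L11, PMAIP1, BBC3 and BID, chosen by name as the best known survival and death genes of the family. All 10 were found by symbol among the 58051 genes of the human count table, and all 10 were among the 12861 genes with enough counts to be tested.

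REC-1 is a human cell line from mantle cell lymphoma, a B cell malignancy in which cyclin D1 is overexpressed. MS-5 is a mouse bone marrow stromal line, so adhered REC-1 cells were sequenced together with the stroma and human and mouse reads were told apart by sequence. The groups were REC-1 cells in mono-culture (Sep), REC-1 cells recovered in suspension from the coculture (Susp) and REC-1 cells adhered to MS-5 cells (Adh), each with 4 libraries of polyadenylated RNA taken after 24 h. All REC-1 cells came from 1 line and no drug was added. The study's legends describe the libraries of a group as independent experiments, so p-values measure the spread between experiments with that line. In such bulk samples fewer cells of a kind and less RNA per cell cannot be told apart.

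Family members fall into 3 roles. Guardians (BCL2, BCL2L1, MCL1, BCL2A1) hold death proteins in check at the outer mitochondrial membrane. Effectors (BAX, BAK1) form pores in that membrane when freed, which releases cytochrome c. BH3-only proteins (BCL2L11, PMAIP1, BBC3, BID) carry a single BH3 motif with which they occupy the groove of guardians or activate effectors. Venetoclax, a drug used in lymphoid malignancies, fills that groove in BCL2, and stromal contact is known as a setting in which lymphoma cells can withstand it.

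Human counts ranged from 9325412 to 12597891 per Sep library, from 15000927 to 21467832 per Susp library and from 7758979 to 13241751 per Adh library. Susp replicate 2 stood apart from the other libraries of its group, with a median absolute log2 difference of 0.32 over genes, where the other 11 REC-1 libraries lay between 0.11 and 0.22 from their own groups. As a description over 12773 genes, its differences from its group correlated with log2 exon length at r = -0.36, where the other 11 libraries lay between -0.09 and 0.22. With exon GC content they correlated at r = 0.42, which was not particular to it, since the libraries ranged from -0.53 (Sep replicate 1) to 0.43 (Sep replicate 4), with replicate 1 negative in all 3 groups. Every result below is therefore given with and without that library where it matters. Summed B cell and mantle cell lymphoma markers stood at 4854 to 6317 CPM in all 12 libraries, and summed stromal markers at 0.752 to 2.01 CPM. LUM and THY1 were at 0, but both also had 0 mouse counts in the Adh libraries, so their zeros say nothing about stromal reads.

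No member was called in any of the 3 comparisons, where a call needed an edgeR quasi-likelihood p adjusted by Benjamini-Hochberg over all tested genes of at most 0.05 and a change of at least 1.5-fold. Of all tested genes, 0.778% were called between Adh and Susp, 0.731% between Susp and Sep and 2.4% between Adh and Sep, so a list of 10 genes with no call was near the background. DESeq2 also called 0 of 10 in each comparison. At an unadjusted edgeR p of at most 0.05, 3 of 10 members passed between Adh and Susp (BCL2A1, BAK1 and BID), 2 of 10 between Susp and Sep (BAK1 and BID) and 1 of 10 between Adh and Sep (PMAIP1), beside 18%, 16.7% and 20.2% of all genes. Leaving aside the low BBC3, the largest fitted differences in the 12 libraries were 0.35 on the log2 scale for BID (Susp against Sep), -0.32 for BAK1 and 0.31 for BCL2A1 (both Adh against Susp). Without Susp replicate 2, 0 of 10 members were called, beside 0.68%, 0.611% and 3.97% of all genes in the same order, and 0 of 10 passed the adjusted p alone, beside 1.2%, 1.18% and 11.9%.

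The intervals were narrow enough to bound most members. Between Adh and Susp the 95% interval of 8 of 10 members lay within 1.5-fold in either direction (all but BCL2A1 and BBC3), where 57.0% of all tested genes had such an interval. Between Susp and Sep it was 8 of 10 members (all but BBC3 and BID), beside 56.2% of all tested genes. Between Adh and Sep it was 9 of 10 (all but BBC3), beside 57.4%. These shares include genes with few counts, whose intervals are wide, and were not matched to the counts of the members. The median log2 fold change of the members was -0.03 for Adh against Susp, 0.13 for Susp against Sep and 0.05 for Adh against Sep, beside medians of -0.01, -0.01 and -0.00 over all genes.

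**Figure D1:**
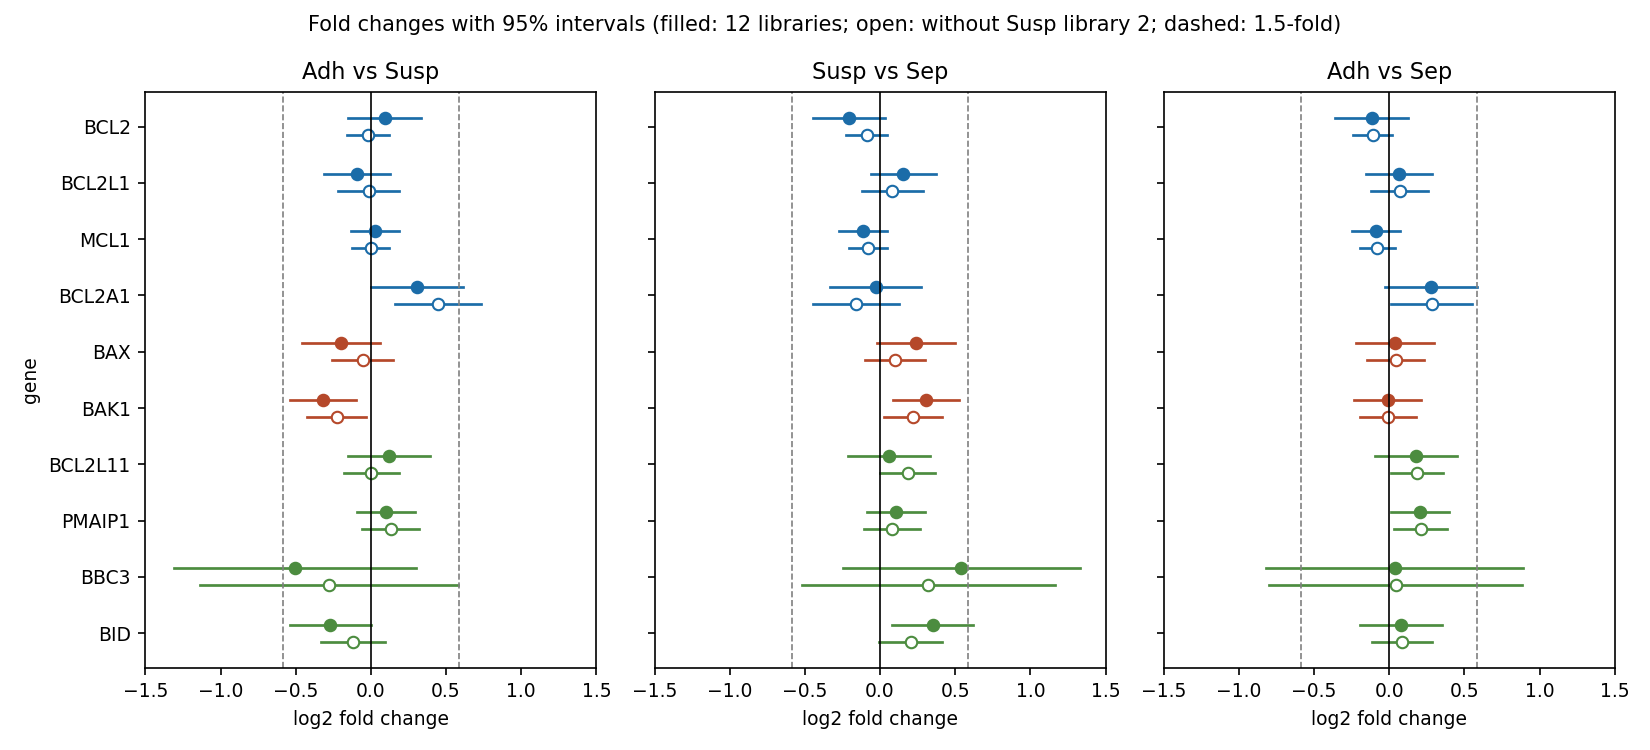
The log2 fold change (x axis) of each member (y axis) is plotted with its 95% interval in 3 comparisons, with filled circles for the fit to 12 libraries, open circles for the fit without Susp replicate 2, and dashed lines at 1.5-fold. The intervals of BBC3 were the widest, from -1.31 to 0.30 between Adh and Susp, and MCL1 had one of the narrowest, from -0.13 to 0.18.

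Since adhered cells were sequenced with mouse cells, the members were first examined for how well their sequence tells the species apart. The longest identical run between the coding sequences of a human member and its mouse ortholog often fell on the motifs that the family shares, and 5 of these runs are shown because a read confined to one carries no species information. Capitals mark the run, lower case the flanking bases of the same human exon, all 5′ to 3′ on the coding strand from GRCh38 with GENCODE release 44.
BCL2L1: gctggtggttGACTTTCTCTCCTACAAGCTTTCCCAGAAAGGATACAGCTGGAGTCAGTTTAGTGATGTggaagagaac
MCL1: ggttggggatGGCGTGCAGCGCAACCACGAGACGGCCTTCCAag
BCL2L11: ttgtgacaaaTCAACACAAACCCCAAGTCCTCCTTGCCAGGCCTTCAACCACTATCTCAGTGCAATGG
BBC3: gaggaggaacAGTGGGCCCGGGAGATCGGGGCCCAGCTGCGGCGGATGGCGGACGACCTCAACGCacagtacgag
BAX: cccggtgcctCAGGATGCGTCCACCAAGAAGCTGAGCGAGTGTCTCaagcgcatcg

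The longest run, 69 bases, was in BCL2, where it codes for the groove-lining BH1 motif. The BCL2L1 run was 59 bases long (exon 2, chr20:31722130-31722188, minus strand, without flanks) and falls on its BH4 motif. The MCL1 run was 32 bases long (exon 1, chr1:150578845-150578876, minus strand) and falls on the end of its BH3 motif. In BBC3 the run of 55 bases (exon 3, chr19:47226580-47226634, minus strand) covers the BH3 motif itself. The BAX run of 36 bases (exon 3, chr19:48955754-48955789, plus strand) reaches the start of the BH3 motif. The BCL2L11 run of 58 bases (exon 2, chr2:111124082-111124139, plus strand) lies ahead of that motif. No run was as long as a read. In BAK1 and BID the longest runs were 20 and 18 bases, shorter than the windows of 25 bases compared here. Such windows were shared with any mouse transcript for 11.3% of the BBC3 transcript, 10.6% of BCL2L1, 4.80% of BAX, 3.86% of BCL2L11, 3.14% of BCL2, 1.45% of MCL1, 0.794% of BCL2A1 and for none of PMAIP1, BAK1 or BID.

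How much mouse RNA of the same genes lay beside the human RNA differed widely between members. Human counts made up between 18.3% and 28.2% of all counts in the 4 Adh libraries. BCL2A1 and PMAIP1 had 0 mouse counts there, and BCL2L11 had 2 mouse counts beside 2990 human ones. The counts of PMAIP1 and BCL2L11 in the mixed libraries thus came almost wholly from the lymphoma cells. For BCL2A1 the mouse side was 4 genes, and only uniquely mapped reads were kept. Mouse reads that match more than 1 of them would have gone uncounted, so its 0 does not show that stromal RNA was absent. BCL2 was 75.1% human (70.1% to 78.2% over the 4 libraries) and MCL1 46.2% human. The effectors were mostly mouse, with BAX at 16.3% and BAK1 at 15.6% human, as were BCL2L1 at 11.2%, BID at 8.50% and BBC3 at 7.75% (61 human and 726 mouse counts).

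Stromal markers gave a measure of mouse reads booked as human. Of 9 markers, 6 had mouse counts in the Adh libraries (DCN, LUM and THY1 had 0), with 526820 mouse counts beside 49 human ones, of which ACTA2 gave 37. Their summed human level was no higher with the stroma than without it, at 0.752 to 1.93 CPM in Adh and 0.945 to 2.01 CPM in Sep. Whether members with more shared sequence were booked at another rate was not tested.

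**Figure D2:**
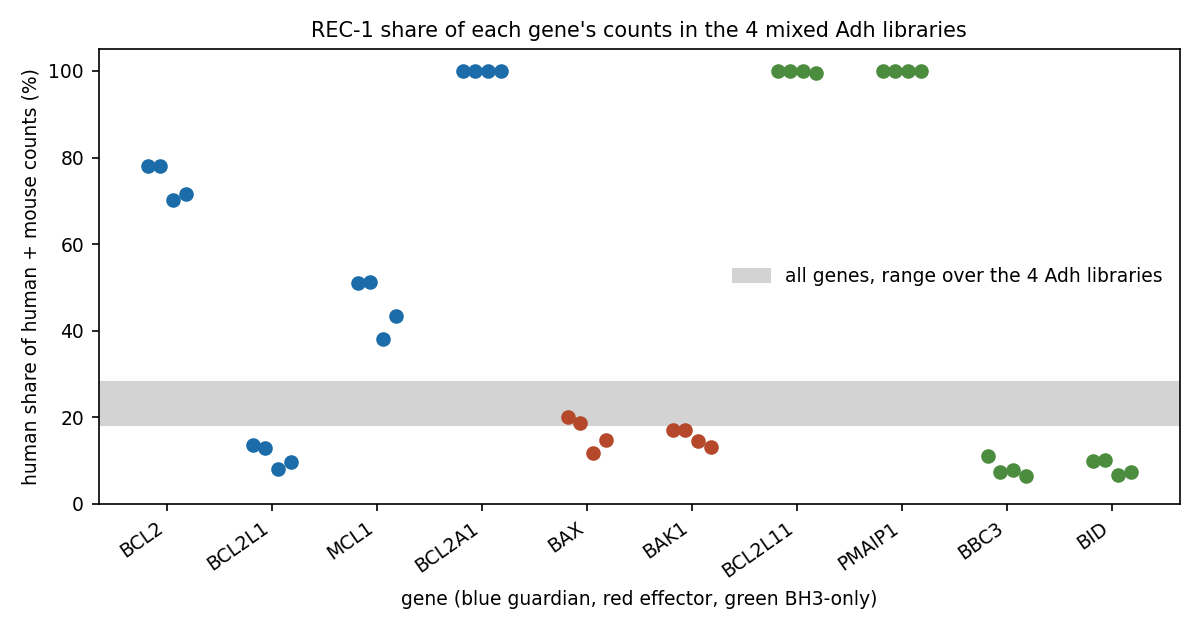
The human share of human plus mouse counts (y axis, percent) is plotted for each member (x axis) in the 4 Adh libraries, 1 point per library, with a grey band for the share over all genes. BCL2A1, PMAIP1 and BCL2L11 sit at or near 100%, BCL2 and MCL1 above the band, and BCL2L1, BAK1, BBC3 and BID below it.

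Levels were compared between genes as RPKM, scaled counts per kilobase of exon. Exon length was the union over all annotated transcripts, which exceeds 1 reference transcript by unlike amounts. It was 2587 against 795 bases for BAX, 6222 against 3950 for MCL1, 12612 against 6881 for BCL2 and 2212 against 2170 for BAK1. The order below thus depends on the length chosen, and an order by transcript length was not computed. MCL1, a short-lived guardian that many B cells need, had the highest RPKM in all 12 libraries, with a median of 47.6 and a range of 41.9 to 51.7. PMAIP1 (33.0 RPKM), which binds MCL1 and BCL2A1, came next, followed by BCL2A1 (29.8) and BAX (27.0). These neighbours changed places: PMAIP1 was above BCL2A1 in 9 of 12 libraries and BCL2A1 above BAX in 6 of 12. BAX was above BAK1 (18.9) in all 12. BAK1, BCL2 (17.2), BID (13.7), BCL2L1 (12.4) and BCL2L11 (10.9) formed a close series in which each was above the next in 9, 11, 10 and 11 of 12 libraries. Antisense genes overlap 41.3% of the exon length of BCL2L1 and 10.8% of that of BCL2L11. Reads there may have been left uncounted, so the places of these genes are less sure. BBC3 was last in every library at a median of 0.605 RPKM, from 12 to 53 counts per library.

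**Figure D3:**
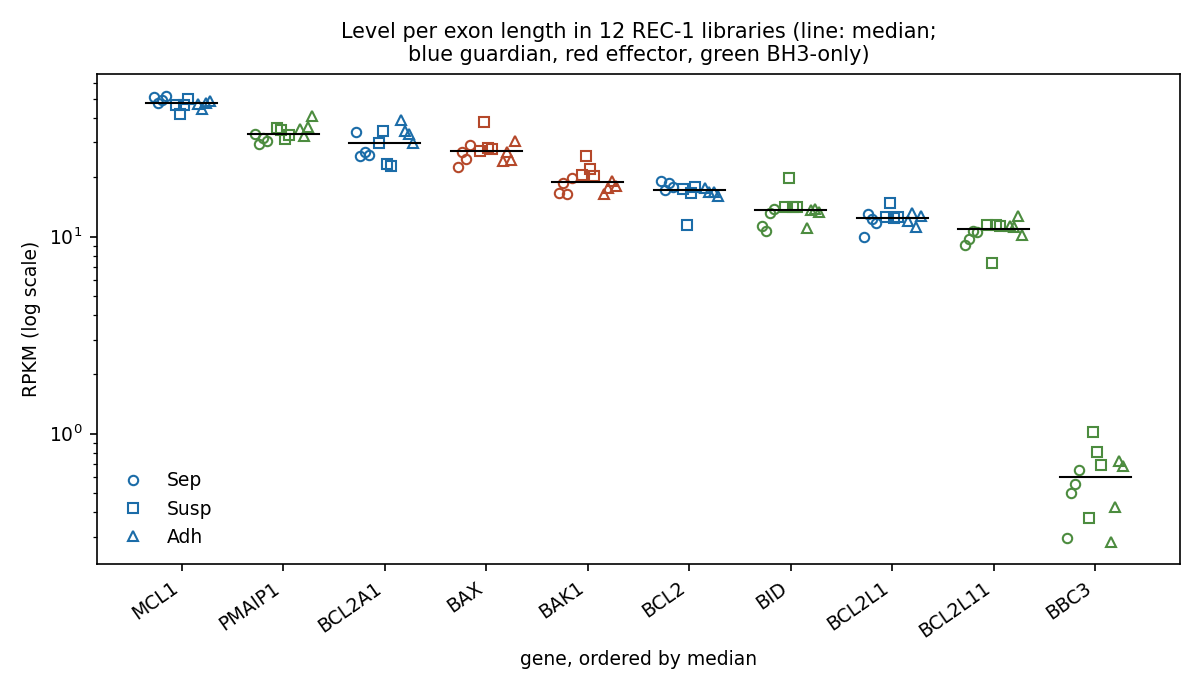
Each symbol is 1 of the 12 REC-1 libraries (circles Sep, squares Susp, triangles Adh), the y axis is RPKM on a log scale and black lines are medians, with genes ordered by median on the x axis. By union exon length MCL1 leads at a median of 47.6 RPKM, 8 members follow between 33.0 and 10.9, and BBC3 stands far below at 0.605.

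Among the guardians, BCL2 (ENSG00000171791, chr18:63123346-63320128, minus strand) is the target of venetoclax. Its levels, in CPM, counts scaled to the size of the library, and in replicate order, were 242, 216, 235 and 225 in Sep, 219, 143, 209 and 224 in Susp and 223, 211, 213 and 201 in Adh. Susp replicate 2 was the lowest library by far, and the other 11 lay between 201 and 242 CPM. The log2 fold change was 0.09 (95% interval -0.15 to 0.33) for Adh against Susp, and -0.02 (-0.16 to 0.12) without Susp replicate 2, so the direction rested on that library. Susp cells were -0.21 from Sep cells (edgeR adjusted p = 0.353) and -0.09 without that library, and Adh cells -0.12 (edgeR adjusted p = 0.614).

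MCL1 (ENSG00000143384, chr1:150560895-150579738, minus strand) varied least, with a coefficient of variation of 5.67% over the 12 libraries. It stood at 317, 295, 305 and 322 CPM in Sep, at 288, 261, 289 and 308 CPM in Susp and at 292, 277, 297 and 302 CPM in Adh. The groups overlapped in every comparison. Adh and Susp cells differed by 0.03 on the log2 scale (95% interval -0.13 to 0.18, edgeR adjusted p = 0.874), which limits a rise in adhered cells to 1.14-fold and a fall to 0.912-fold. Without Susp replicate 2 the difference was -0.00 (-0.13 to 0.12). Against Sep cells, Susp cells were at -0.11 and Adh cells at -0.09, with upper limits of 0.05 and 0.07.

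BCL2L1 (ENSG00000171552, chr20:31664452-31723989, minus strand) encodes BCL-XL, a guardian that BCL2-selective drugs spare. It had 41.7, 54.6, 51.5 and 49.0 CPM in Sep, 52.8, 61.9, 52.0 and 52.4 CPM in Susp and 50.1, 55.0, 46.8 and 53.6 CPM in Adh. Groups overlapped, and the log2 fold changes were -0.09, 0.16 and 0.06 for Adh against Susp, Susp against Sep and Adh against Sep, each with an interval that held 0. Without Susp replicate 2, its highest library, they were -0.01, 0.08 and 0.07 in the same order. In the annotation 41.3% of its exon length overlaps the antisense gene ABALON, and the kit kept no strand, so reads of the pair cannot be told apart there. ABALON itself had 5 to 33 counts per library, beside 364 to 1076 for BCL2L1, which does not show how reads of the overlap were counted.

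BCL2A1 (ENSG00000140379, chr15:79960892-79971196, minus strand) encodes BFL-1, a guardian that NF-kB is known to induce. It had 33.8, 25.6, 26.8 and 25.8 CPM in Sep, 29.5, 34.2, 23.3 and 22.8 CPM in Susp and 38.6, 34.1, 32.9 and 29.8 CPM in Adh. The Adh libraries were high, but Susp replicate 2 and Sep replicate 1 reached into their range, so no pair of groups was separate in the 12 libraries. Without Susp replicate 2, the highest Susp library (29.5 CPM) lies just under the lowest Adh library (29.8 CPM) on this scale. With CPM rescaled to the libraries kept, Adh and Susp still overlapped. Adh cells were 0.31 above Susp cells on the log2 scale (SE 0.14, 95% interval 0.00 to 0.61, edgeR adjusted p = 0.272) and 0.28 above Sep cells (SE 0.14, edgeR adjusted p = 0.298). Without Susp replicate 2 the difference from Susp was 0.45 (SE 0.14, 95% interval 0.16 to 0.73, edgeR adjusted p = 0.110), a fold of 1.36. Without Sep replicate 1 as well, a choice made after seeing the data, it was 0.45 with an edgeR adjusted p of 0.0447, still under the 1.5-fold minimum.

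**Figure D4:**
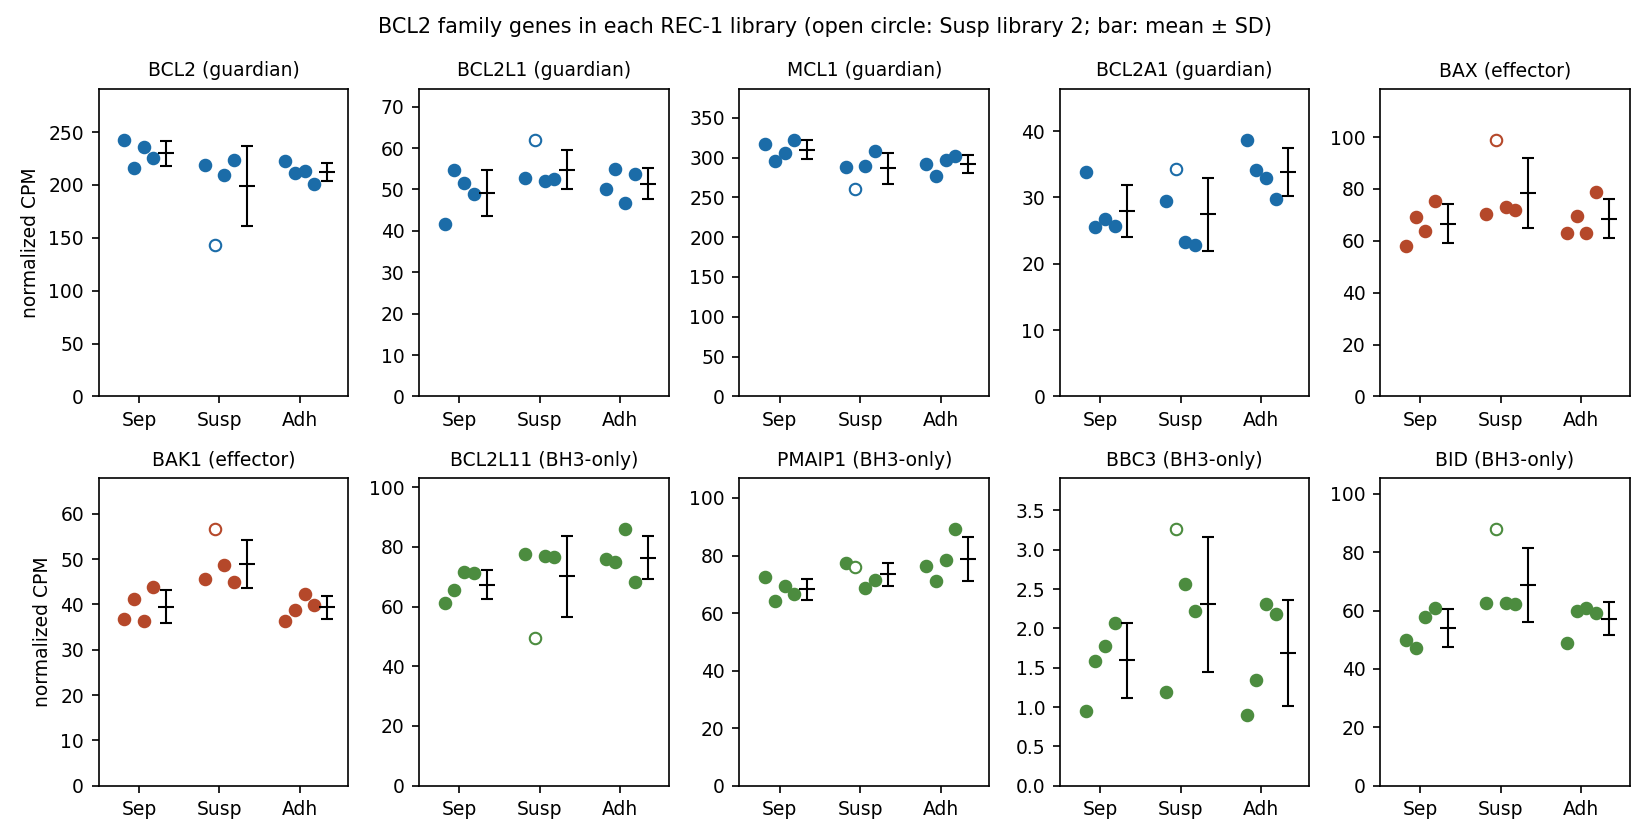
Scaled CPM (y axis, from 0) are plotted for the 10 members in the 4 Sep, 4 Susp and 4 Adh libraries (x axis), with Susp replicate 2 as an open circle and bars for mean ± SD. The 4 Susp libraries of BAK1 (44.9 to 56.5 CPM) and BID (62.3 to 87.8 CPM) sit above all Sep and Adh libraries, while the other 8 members overlap between groups.

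Of the effectors, BAK1 was separate between Susp cells and the other groups and BAX was not. BAK1 (ENSG00000030110, chr6:33572547-33580293, minus strand) encodes BAK, which sits in the mitochondrial membrane and is held by MCL1 and BCL-XL. It had 36.8, 41.2, 36.3 and 43.9 CPM in Sep, 45.6, 56.5, 48.7 and 44.9 CPM in Susp and 36.4, 38.8, 42.4 and 39.8 CPM in Adh. Every Susp library was above every Sep and every Adh library. BAK1 was 0.31 higher in Susp than in Sep cells (log2, SE 0.10, 95% interval 0.09 to 0.53, edgeR adjusted p = 0.176) and at -0.32 in Adh against Susp cells (SE 0.10, -0.54 to -0.10, edgeR adjusted p = 0.142). Adh against Sep cells was at -0.01 (95% interval -0.23 to 0.21). Neither difference passed the adjusted threshold.

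BID and BAK1 were the members whose groups did not overlap between Adh and Susp (2 of 10, beside 11.4% of all genes) and between Susp and Sep (2 of 10, beside 11.3%), and no member was separate between Adh and Sep (15.7% of all genes). For both genes the exact two-sided permutation p was 0.0286 in both comparisons, the smallest that 4 against 4 libraries can give, in 30 such tests. That value follows from the separation itself and is not further evidence. Leaving out Susp replicate 2, with CPM rescaled to the libraries kept, is no check on these genes, since a group already separate stays so with fewer libraries. In that setting BCL2L11 was also separate between Susp and Sep. Of all genes, 18.2% were then separate between Adh and Susp and 13% between Susp and Sep. In that fit the BAK1 values were -0.23 for Adh against Susp (edgeR adjusted p = 0.215) and 0.22 for Susp against Sep (edgeR adjusted p = 0.367). BAK1 exons have a GC content of 58.8%, and a per-library correction for GC content and exon length, added after seeing the data, brought the values to -0.11 and 0.07. How much of the BAK1 pattern goes with base composition was not tested beyond that.

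BAX (ENSG00000087088, chr19:48954815-48961798, plus strand) encodes the effector that moves from the cytosol to the mitochondria. It had 58.2, 69.2, 63.9 and 75.4 CPM in Sep, 70.4, 98.8, 73.0 and 72.0 CPM in Susp and 62.8, 69.5, 63.0 and 78.8 CPM in Adh. The groups overlapped, and Susp replicate 2 was the highest of the 12 libraries. The log2 fold change was 0.24 for Susp against Sep (edgeR adjusted p = 0.330) and -0.20 for Adh against Susp (edgeR adjusted p = 0.397), and 0.10 and -0.06 without that library. With the GC and length correction both were near 0, at -0.01 and 0.05.

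BID (ENSG00000015475, chr22:17734138-17774770, minus strand) links the death receptors to the mitochondria once caspase-8 has cut it. It had 49.9, 47.2, 58.0 and 60.9 CPM in Sep, 62.7, 87.8, 62.5 and 62.3 CPM in Susp and 48.8, 59.9, 60.9 and 59.0 CPM in Adh. The Susp libraries were the highest, but by a narrow margin: the lowest of them was at 62.3 CPM and the highest Sep and Adh libraries were both at 60.9 CPM. Susp cells were 0.35 above Sep cells (log2, SE 0.13, 95% interval 0.08 to 0.62, edgeR adjusted p = 0.203) and Adh cells at -0.27 from Susp cells (SE 0.13, edgeR adjusted p = 0.278). Without Susp replicate 2 the values were 0.20 and -0.12, so over 1.5 times smaller.

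BCL2L11 (ENSG00000153094, chr2:111119378-111168444, plus strand) encodes BIM, which binds all guardians and can activate BAX and BAK directly. It had 61.3, 65.4, 71.6 and 71.3 CPM in Sep, 77.5, 49.6, 76.8 and 76.6 CPM in Susp and 75.9, 75.0, 85.8 and 68.4 CPM in Adh. Susp replicate 2 was the lowest of all libraries, while the other 3 Susp libraries were above every Sep library. The log2 fold change from Sep was 0.06 for Susp and 0.18 for Adh in the 12 libraries, and 0.18 for both without Susp replicate 2 (edgeR adjusted p = 0.442 and 0.153). Adh and Susp cells then differed by 0.00 (95% interval -0.18 to 0.18). Over 10.8% of its exon length the antisense gene MIR4435-2HG, with 48 to 135 counts per library, overlaps it.

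PMAIP1 (ENSG00000141682, chr18:59899996-59904305, plus strand) encodes NOXA, a target of p53 and of the stress factor ATF4. It had 72.5, 64.2, 69.5 and 66.6 CPM in Sep, 77.3, 76.1, 68.6 and 71.6 CPM in Susp and 76.3, 71.1, 78.5 and 89.0 CPM in Adh. Of the Adh libraries, 3 lay above all Sep libraries and replicate 2 below the highest of them. Adh cells were 0.21 above Sep cells (log2, SE 0.09, 95% interval 0.01 to 0.40, edgeR adjusted p = 0.212, and 0.112 without Susp replicate 2), and a fold of 1.15. The differences of 0.10 for Adh against Susp and 0.11 for Susp against Sep had intervals that held 0.

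BBC3 (ENSG00000105327, chr19:47220822-47232766, minus strand) encodes PUMA, also a BH3-only target of p53, and was barely expressed. It had 0.945, 1.59, 1.78 and 2.07 CPM in Sep, 1.19, 3.26, 2.56 and 2.22 CPM in Susp and 0.902, 1.35, 2.31 and 2.18 CPM in Adh. The lowest library of each group was its replicate 1. At 12 to 53 counts per library its 95% interval for Adh against Susp ran from -1.31 to 0.30 on the log2 scale, so the counts bounded this gene less closely than the others. The log2 fold change there was -0.50, and -0.28 without Susp replicate 2. For Susp against Sep it was 0.54, and 0.32 without that library.

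Susp replicate 2 was the highest or lowest Susp library for 9 of 10 members, and the direction went with gene length. Relative to the mean of the other 3 Susp libraries it held 0.645-fold as much BCL2L11, 0.660-fold as much BCL2 and 0.883-fold as much MCL1, the members with the longest exon sequence (6742, 12612 and 6222 bases). It held 1.36-fold as much BCL2A1, 1.38-fold as much BAX, 1.40-fold as much BID and 1.64-fold as much BBC3, with 995 to 4420 bases. PMAIP1 (1.05-fold), BCL2L1 (1.18-fold) and BAK1 (1.22-fold) lay between them. In this library BCL2 was low and BAX high at once, and its values enter both comparisons with Susp cells.

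**Figure D5:**
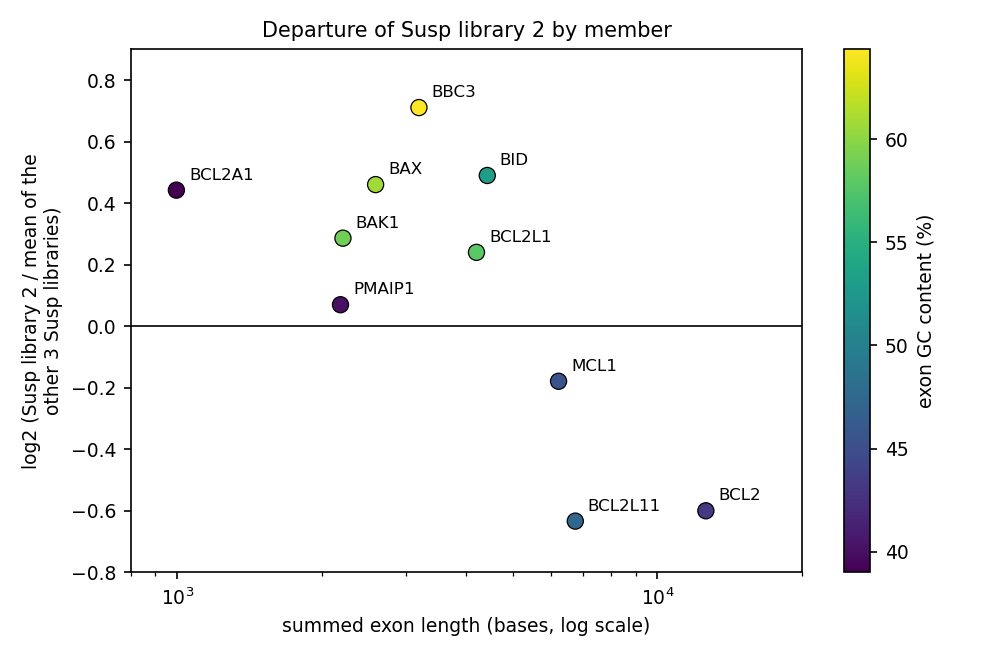
The log2 ratio of Susp replicate 2 to the mean of the other 3 Susp libraries (y axis) is plotted against summed exon length in bases (x axis, log scale) for the 10 members, coloured by exon GC content in percent. BCL2, BCL2L11 and MCL1, the longest at 6222 bases or more, lie below 0 and the other 7 above it.

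Ratios of members within a library do not depend on how libraries are scaled, and are given as descriptions. They were not corrected for the differences between libraries that go with GC content and exon length. The log2 ratio of PMAIP1 to its partner MCL1 (RPKM) was -0.62, -0.69, -0.63 and -0.76 in Sep, -0.39, -0.27, -0.57 and -0.60 in Susp and -0.43, -0.45, -0.41 and -0.25 in Adh. All Sep libraries were below all libraries from the coculture, with Susp replicate 4 only just above the highest of them. Neither gene alone was separate in any comparison. How often the ratios of other gene pairs separate was not counted, while single genes did so for 11.3% (Susp and Sep) and 15.7% (Adh and Sep). The ratio of BAK1 to MCL1 ran from -1.29 to -0.71 in Susp, above -1.61 to -1.35 in Sep and -1.51 to -1.32 in Adh. The exons of BAK1 have 58.8% GC over 2212 bases and those of MCL1 45.5% over 6222 bases. How much of the difference goes with these features was not tested. The ratio of BAX to BCL2 was 1.75 in Susp replicate 2 and between 0.23 and 0.93 in the other 11 libraries. BCL2L11 to MCL1 ran from -2.49 to -2.21 in Sep and from -2.26 to -1.91 in Adh, which overlapped.

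Summed by role, the 4 guardians held 103 to 114 RPKM in Sep, 98.9 to 106 in Susp and 107 to 115 in Adh. The 4 BH3-only genes held 50.2 to 56.1 RPKM in Sep, 57.7 to 63.0 in Susp and 57.5 to 64.9 in Adh, sums to which PMAIP1 gave the most. The effectors held 39.1 to 49.0, 47.8 to 63.7 and 40.7 to 48.4 RPKM. Guardian sums of Susp lay below those of Adh and BH3-only sums of Sep below those of both other groups, each by a small margin, and the sums were not tested. How often sums of other genes separate was not counted, and the sums rest on union exon lengths. They were not taken again without Susp replicate 2.

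BAK1 and BID had the largest F over the 3 groups (6.19 and 4.25), and the genes whose log2 CPM followed theirs most closely over the 12 libraries were looked up among genes of at least 10 CPM. For BAK1 these were AURKB, a kinase of mitosis (Pearson r = 0.97), TCEA2, an elongation factor of transcription (r = 0.93) and GRINA (r = 0.93). For BID they were PSMA7, a subunit of the proteasome (r = 0.95), NDUFC1, a subunit of respiratory complex I (r = 0.95) and NAA10, an N-terminal acetyltransferase (r = 0.93). Without Susp replicate 2 the r was 0.95 for AURKB and between 0.83 and 0.87 for the other 5 genes. The points share libraries and their base composition, and the genes are the closest of all those tested.

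Genes that act around the family rarely passed the test either. Of 79 genes in 9 lists (other family members, apoptosome and caspases, inhibitors of apoptosis, death receptors, the p53 axis, factors that induce BH3-only genes, NF-kB, MCL1 ubiquitin enzymes, outer membrane and fission), 71 were tested and 0 were called in each of the 3 comparisons. At an unadjusted edgeR p of at most 0.05, 12 of 71 passed between Adh and Susp (9 higher), 12 of 71 between Susp and Sep (8 higher) and 19 of 71 between Adh and Sep (15 higher), beside the 18%, 16.7% and 20.2% of all genes given above. Over all genes, 1008 were higher and 1308 lower at that p between Adh and Susp, 1199 higher and 946 lower between Susp and Sep, and 1187 higher and 1409 lower between Adh and Sep. Without the fold minimum, 1 gene passed between Susp and Sep and 1 between Adh and Sep, beside 1.02% and 3.41% of all genes, and 0 between Adh and Susp (0.941%). Leaving out Susp replicate 2 moved these counts to 3 between Susp and Sep (ATF4 higher, TNFAIP3 and CFLAR lower, beside 1.18% of all genes) and to 10 between Adh and Sep, beside 11.9% of all genes, with 0 still between Adh and Susp (1.2%). The 10 were CYCS, ATF4, ZMAT3, TP73, VDAC2, VDAC3 and MTCH2, which were higher, and BIRC6, MDM4 and NFKB1, which were lower. These genes were chosen for naming after their values were seen.

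TNFAIP3, which encodes the NF-kB brake A20, had 117, 127, 108 and 124 CPM in Sep, 89.4, 63.0, 82.6 and 85.7 CPM in Susp and 107, 89.0, 94.6 and 109 CPM in Adh. It was at -0.57 in Susp against Sep cells (edgeR adjusted p = 0.0168), a fold of 0.675 and thus just short of the fold minimum, and at -0.48 without Susp replicate 2. CYCS, which encodes the cytochrome c that BAX and BAK release, had 468, 367, 395 and 362 CPM in Sep and 539, 495, 584 and 512 CPM in Adh, so the groups did not overlap. It was 0.42 higher in Adh than in Sep cells (SE 0.10, edgeR adjusted p = 0.0287), a fold of 1.34.

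TP73, a p53 relative that can induce PMAIP1 and BBC3, was low, with 1.18, 2.68, 1.46 and 2.71 CPM in Sep, 2.72, 4.30, 4.16 and 4.77 CPM in Susp and 3.08, 3.56, 5.91 and 4.62 CPM in Adh. All Sep libraries were below all libraries of the other groups. It was 1.06 higher in Adh than in Sep cells (log2, SE 0.31, edgeR adjusted p = 0.0702), and without Susp replicate 2, with 3.97% of all genes called, it was the 1 gene of the 9 lists that was called, at 1.07 (edgeR adjusted p = 0.0380). Of the 13 other family members 7 were tested and 0 passed the adjusted p. At the unadjusted edgeR p, 0, 1 and 3 of the 7 passed between Adh and Susp, Susp and Sep, and Adh and Sep, all higher. HRK, a BH3-only gene named after its values were seen, was 1.66-fold higher in Susp than in Sep cells (edgeR adjusted p = 0.148) and 1.65-fold higher in Adh than in Sep cells (edgeR adjusted p = 0.103), and BMF and BNIP3 passed only between Adh and Sep. BCL2L2, the remaining guardian of wide expression, stayed under 1 CPM in all 12 libraries, as did BIK, BOK, BCL2L10 and BCL2L14. Overlap of exons with other annotated genes was examined only for the members chosen by name at the outset, not for these genes. Any reads shared with an overlapping gene may have been left uncounted, so these low values do not show that the transcripts were absent.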

How the data were processed

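REC-1 RNA was sequenced from mono-cultured, suspended and adhered cells, 4 libraries each. Per the paper's methods and the labels, the authors sorted read pairs by species with Xenome, mapped each set with STAR 2.5.1b to GRCh38 or GRCm38, keeping uniquely mapped reads, and counted fragments with featureCounts of Subread 1.5.2. The deposited values were raw counts per gene, neither normalized nor filtered by the authors, whose own test was edgeR 3.22.5. Depth was 7758979 to 21467832 human counts per library, and counting error limits genes at a few CPM. The 20 other columns of the count tables belong to samples outside these groups and were not used.

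Members were taken by symbol. One edgeR 4.0.16 model (R 4.3.3) of 12 libraries was fitted with filterByExpr, TMM and the earlier quasi-likelihood F-test, and p-values were adjusted by Benjamini-Hochberg over 12861 genes. Calls needed an adjusted p of at most 0.05 and 1.5-fold. Intervals are 95% intervals of the fitted log2 fold change. CPM and RPKM used TMM-scaled library sizes, and RPKM the union of exons in GENCODE release 44. The steps were tested on simulated data. No 2 libraries of the same group were alike within sampling noise, and libraries of different groups were not compared in this way. Replicate numbers were checked as pairs: deviations of same-numbered libraries had an r over 0.1 in 3 of 4 cases for Adh with Sep, but in 1 of 4 for Adh with Susp and likewise for Susp with Sep, so they were not used as pairs. The highest r was that of replicate 1, at 0.31 for Adh with Sep, 0.31 for Adh with Susp and 0.32 for Susp with Sep. A low r does not exclude that same-numbered libraries came from 1 experiment.

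Named by rule were all 10 members, any list gene called in the 12 libraries (there was none), and the 3 genes most correlated with each of the 2 members of largest F. Further list genes were named after their values were seen. Members and lists were chosen with earlier results of these data known. Alternatives were DESeq2 1.42.0, upper-quartile scaling, other filters, thinned counts, edgeR 4's own quasi-likelihood, 2-group fits, a replicate term and leaving out libraries. The GC and length correction, the replicate term without Susp replicate 2 and the fit without Sep replicate 1 and Susp replicate 2 were added after seeing the data.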

Additional observations from a re-analysis of the deposited data

Results flagged for a closer look

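In 6 of 30 sets of 4 libraries (10 members in 3 groups), 1 library lay further from the rest than Dixon's 95% limit allows, where chance flags about 1 in 20. Of these, 4 were Susp replicate 2: BCL2L1 at 61.9 CPM, BAX at 98.8 CPM and BID at 87.8 CPM were higher there than in the other Susp libraries, and BCL2L11 at 49.6 CPM was lower. The remaining sets were BCL2A1 in Sep replicate 1, high at 33.8 CPM, and BID in Adh replicate 1, low at 48.8 CPM. Without Sep replicate 1, BCL2A1 was at 0.39 on the log2 scale in Adh against Sep cells, beside 0.28 with it, and at 0.31 against Susp cells either way. Without Adh replicate 1, BID was at -0.20 in Adh against Susp cells, beside -0.27 with it, and at 0.15 against Sep cells, beside 0.08.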

How the results depend on the processing

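No member was called, with both thresholds, under any of the 24 alternatives in any comparison. Adjusted p alone passed in 2 of them, both added after seeing the data. Under a replicate block without Susp replicate 2, BCL2A1 passed between Adh and Susp (log2 fold change 0.46, edgeR adjusted p = 0.00289) and between Adh and Sep (edgeR adjusted p = 0.0268), and PMAIP1 between Adh and Sep (edgeR adjusted p = 0.0386). Without Sep replicate 1 and Susp replicate 2, BCL2A1 passed in the same comparisons (edgeR adjusted p = 0.0447 and 0.0330). Under the replicate block with all 12 libraries, BAK1 did not pass between Adh and Susp (edgeR adjusted p = 0.0683) or between Susp and Sep (edgeR adjusted p = 0.0840). Leaving out 1 library, members kept their direction except as follows. Between Adh and Susp, BCL2 ranged from -0.022 to 0.15 and MCL1 from -0.0022 to 0.062. Between Susp and Sep, BCL2A1 ranged from -0.16 to 0.082. Between Adh and Sep, BCL2L1 ranged from -0.0044 to 0.12, BBC3 from -0.16 to 0.27, BAX from -0.034 to 0.099 and BAK1 from -0.048 to 0.040.

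With the GC and length correction, Adh against Susp turned to 0.10 for BCL2L1, -0.041 for MCL1 and 0.053 for BAX, and Susp against Sep to -0.00087 for BCL2L1 and -0.013 for BAX. BCL2 turned to -0.0062 in Adh against Susp under the replicate block without Susp replicate 2. Without Sep replicate 1 and Susp replicate 2, BCL2 and MCL1 turned to -0.021 and -0.0022 there, and BCL2L1, BBC3 and BAX to -0.00057, -0.15 and -0.016 in Adh against Sep. BCL2A1 turned to 0.018 in Susp against Sep with thinned counts, and BBC3 to -0.017 in Adh against Sep with edgeR 4's quasi-likelihood. The cause was not tested.

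Of the listed genes, 2 were called between Susp and Sep with no low-count filter, 1 with no fold minimum and 0 to 1 with 1 library left out. Between Adh and Sep 1 was called under the replicate block, DESeq2, no low-count filter, no fold minimum and the GC correction each, 3 under the replicate block without Susp replicate 2, and 0 to 1 with 1 library left out (1 without Susp replicate 2). Same-numbered libraries were not shown to be pairs, and the replicate block moved the calls over all genes from 100 to 281, 94 to 175 and 309 to 384 for Adh against Susp, Susp against Sep and Adh against Sep, where DESeq2 called 282, 172 and 527. With no low-count filter they were 341, 217 and 503.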
